A study of Mus musculus with 8 samples.

Results

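The RNA levels of 10 genes of the erythroid programme were followed, the sequence of steps by which a progenitor becomes a red blood cell: Gata1, Klf1, Zfpm1, Epor, Tfrc, Hba-a1, Hbb-bt, Car1, Car2 and Ermap. They are a list of names, and all 10 were found among the 48709 Ensembl gene identifiers of the count files by their symbol in GENCODE M21 (build GRCm38). The levels came from bulk RNA of mouse hematopoietic stem and progenitor cells (HSPCs) of the strain C57Bl/6J, sorted as lineage-negative, Sca1-positive and cKit-positive cells. All wells were seeded with 10000 cells and kept for 7 days in a medium free of serum, to which stem cell factor (100 ng/ml), Flt3 ligand (2 ng/ml), penicillin and streptomycin were added. Control wells held no malonyl-CoA (4 libraries, numbered 1, 3, 4 and 5) and treated wells held malonyl-CoA at 100 µM (4 libraries with the same numbers). Malonyl-CoA is the building block of fatty acid synthesis and an inhibitor of fatty acid import into mitochondria. Erythropoietin is not among the additions that the labels name. The libraries hold the progeny of the seeded cells and not the cells as sorted, and the labels do not say whether a replicate is an animal, a pool or a culture, so p-values measure the spread between these samples.

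Red cell formation starts in progenitors that express GATA1, a zinc finger factor that binds the DNA word GATA, together with its cofactor FOG1 (the product of Zfpm1) and KLF1, a factor of CACCC-type sites. Erythropoietin acts through its receptor (Epor) to keep committed progenitors alive, and the transferrin receptor (Tfrc) brings in the iron needed for heme. Globin chains, the erythroid heme enzyme ALAS2 and the anion exchanger SLC4A1 are made in bulk only late, in erythroblasts. Several early members are shared: GATA1 also acts in megakaryocytes, mast cells and eosinophils, and the transferrin receptor is made by most dividing cells.

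Gene counts ranged from 17492085 to 22079844 per library. Malonyl-CoA 4 stood apart, with 2.94% of tallied reads in no gene against 1.11% to 1.56% in the others. Levels are given as CPM, gene counts scaled to a common library size with TMM factors, and a pair of values with ± is the control and then the malonyl-CoA mean with SD (n = 4 each). The genes of the sort were present in every library, with Kit at 270.1 ± 36.7 and 244 ± 51.9 CPM and Ly6a (Sca1) at 42.2 ± 21.1 and 81.3 ± 37.2 CPM. Mpo, a granule enzyme of neutrophil precursors, was at 9386 ± 2425 and 9165 ± 1470 CPM. The label "erythroid" was checked against markers of late red cells, of which 7 are given here, and these 7 were near the limit of counting. Alas2 and Slc4a1 had no read in any library, Hba-a1 had 1 read, Hbb-bs 2, Epb42 7, Rhag 11 and Ank1 33 reads over all 8 libraries. The libraries hold the early genes of the list at measurable levels and the late ones hardly at all.

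**Figure D1:**
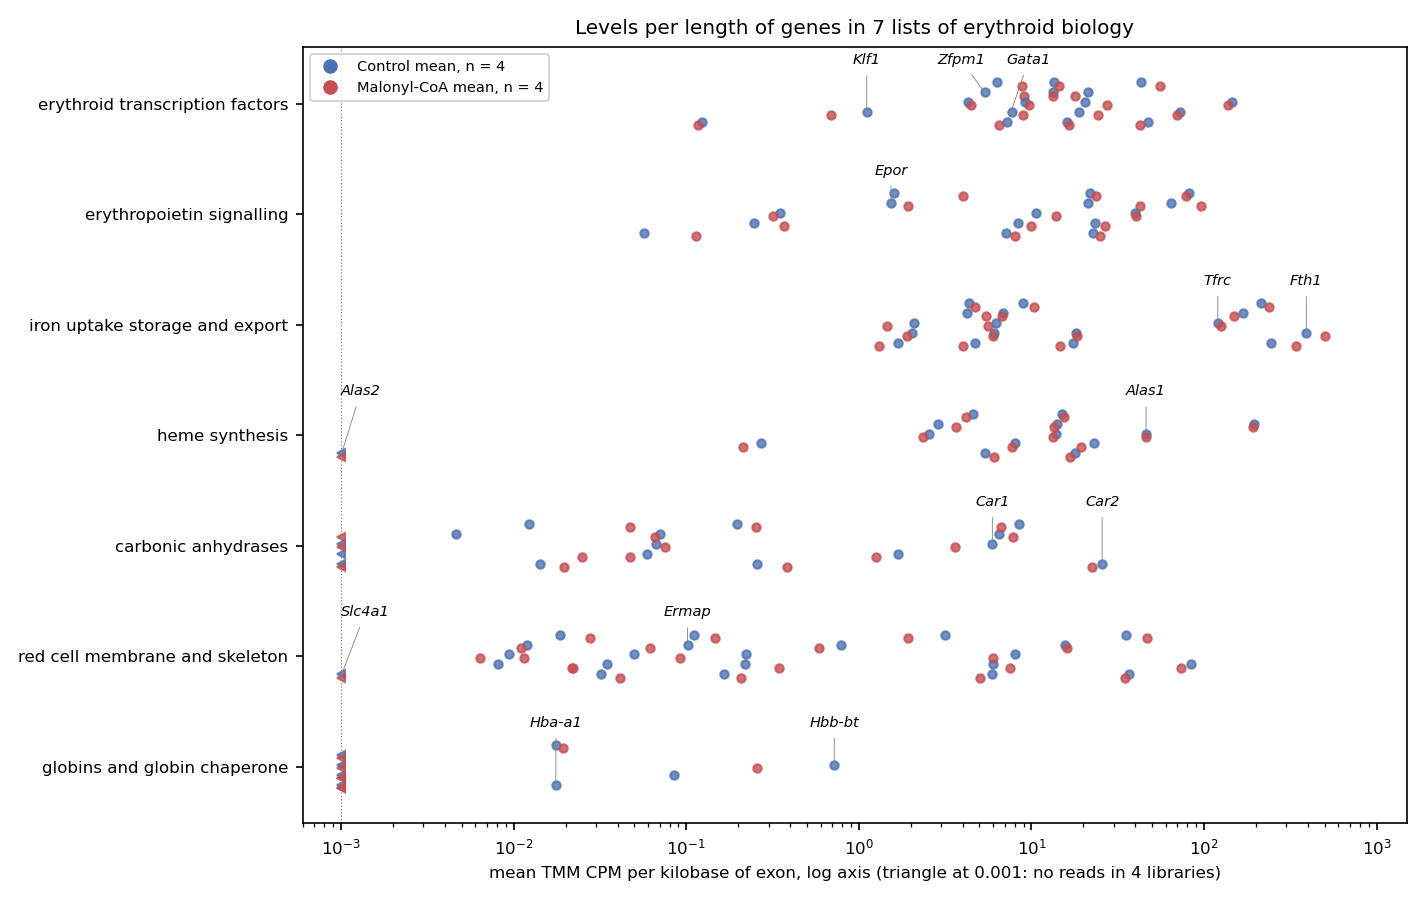
Mean level per kilobase of exon (log axis, TMM CPM per kilobase) of the genes in 7 lists of erythroid biology, in control (blue) and malonyl-CoA (red) libraries, n = 4 each, with triangles for genes without a read. The transcription factors and iron genes mostly lie above 1, while the globins lie below 1 and Alas2 and Slc4a1 at 0.

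Compared per kilobase of exon (RPKM, from TMM CPM), the members stood in this order by their mean over the 8 libraries: Tfrc (123), Car2 (24.1), Zfpm1 (7.26), Gata1 (6.86), Car1 (4.78), Epor (1.73), Klf1 (0.902), Hbb-bt (0.488), Ermap (0.0818) and Hba-a1 (0.00878). Tfrc and Car2 were each above the next gene in 8 of 8 libraries with no overlap of their ranges. Zfpm1 and Gata1 could not be ordered, since Zfpm1 was higher in 4 of the 8 libraries. Gata1 and Car1 overlapped, with Gata1 higher in 7 libraries, and so did Klf1 and Hbb-bt, with Klf1 higher in 7. The ranges of Hbb-bt, Ermap and Hba-a1 also overlapped with their neighbours. Within libraries, Hbb-bt was above Ermap, and Ermap above Hba-a1, in 8 of 8. Epor lay below every value of Car1 and above every value of Klf1. Tfrc was above 97.0% of the 12696 genes tested in level per length, Gata1 above 52.1%, Epor above 24.2% and Klf1 above 16.0%.

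The comparison of malonyl-CoA with control called none of the members. Of the 10 genes, 7 passed the filter on low counts and 3 (Hba-a1, Hbb-bt and Ermap) did not. In edgeR's quasi-likelihood test 0 of these 7 had a Benjamini-Hochberg adjusted p under 0.05, where 0% of all 12696 genes were called. At an unadjusted p under 0.05, 2 of the 7 were lower with malonyl-CoA (Car1 and Klf1), against 4.05% of all genes, and 0 were higher, against 5.33%. In the same 2 genes all malonyl-CoA libraries lay below all controls, as in 2.93% of all genes, and in 0 members all lay above, against 3.21%. DESeq2 called 0 members, where it called 0.555% of the 14591 genes it gave an adjusted p, and limma-voom called 0. Since the members were chosen with results of these data known, these counts are a description.

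**Figure D2:**
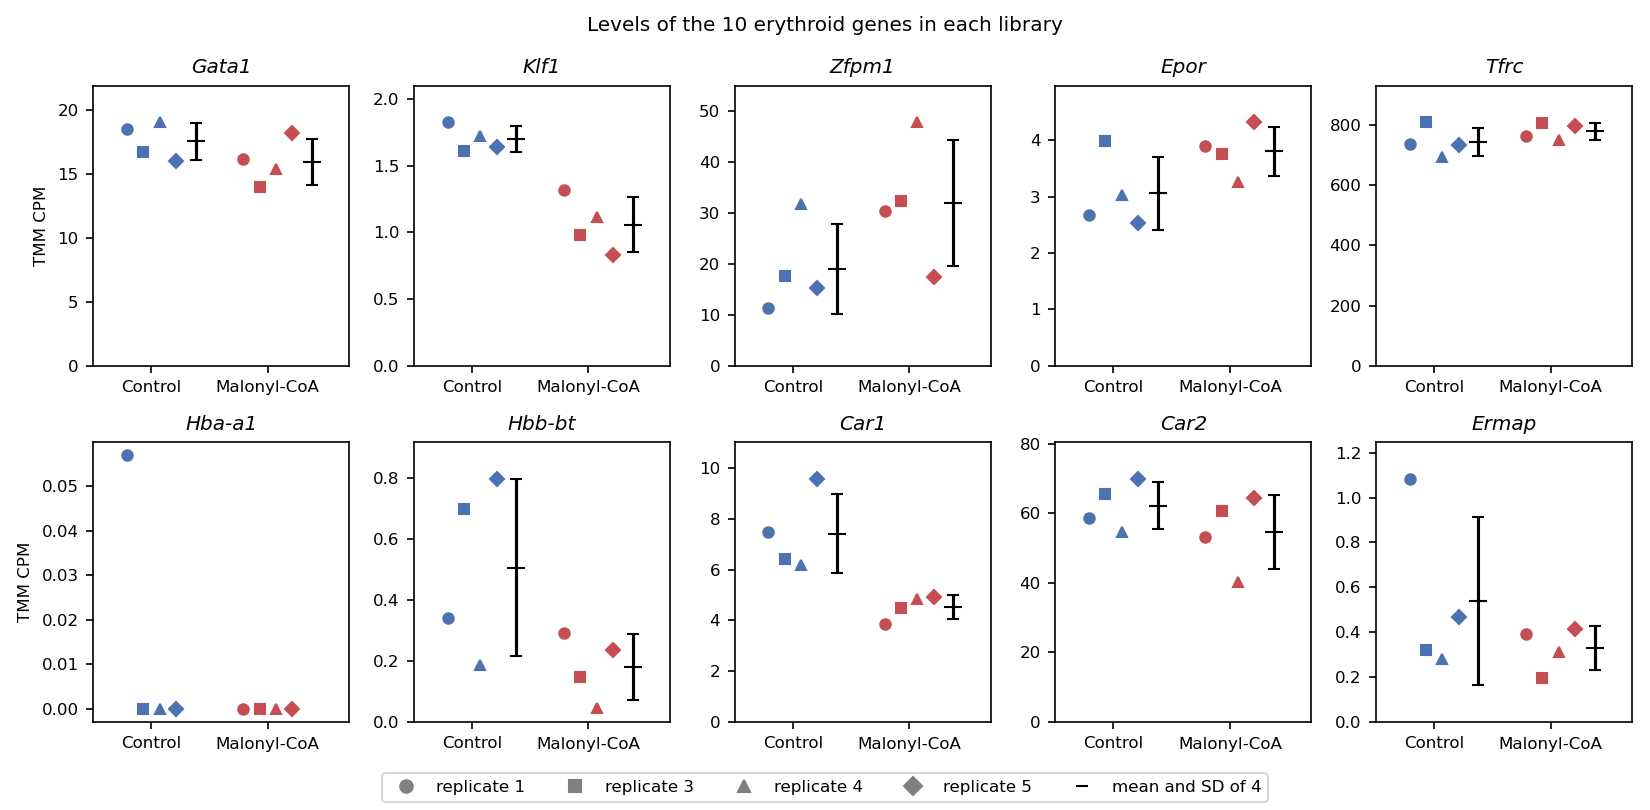
TMM CPM of the 10 genes in each of the 4 control (blue) and 4 malonyl-CoA (red) libraries, with the replicate number as the symbol and the mean and SD of each group in black (none for Hba-a1, with 1 read in all). Car1 and Klf1 are the genes in which the groups do not overlap.

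Among the transcription factors, all malonyl-CoA libraries lay below all controls in Klf1, while the groups overlapped in Gata1 and Zfpm1, and none of the 3 passed the test. Klf1 (ENSMUSG00000054191, chromosome 8, 84901928 to 84905291, 3 merged exons) drives beta-globin, heme and membrane genes in erythroid cells. It stood at 1.83, 1.61, 1.72 and 1.64 CPM in controls 1, 3, 4 and 5, and at 1.31, 0.977, 1.12 and 0.828 CPM in malonyl-CoA 1, 3, 4 and 5. The controls were close together, and the highest malonyl-CoA library lay under the lowest of them. The log2 fold change was -0.67 (SE 0.22, adjusted p = 0.449 in edgeR), which does not pass. Between 14 and 37 reads lie behind each of these values. The 95% exact Poisson interval of malonyl-CoA 5 ran from 0.453 to 1.39 CPM and that of control 3 from 1.09 to 2.30, so single libraries overlap within counting error. Such intervals cover counting error only. In bulk RNA, fewer cells that make a transcript and less of it per cell cannot be told apart.

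Gata1 (ENSMUSG00000031162, chromosome X, 7959260 to 7978071) was at 18.5, 16.7, 19.0 and 16.0 CPM in the controls and 16.2, 13.9, 15.4 and 18.2 CPM with malonyl-CoA. The groups overlapped, and the log2 fold change of -0.14 (SE 0.13, adjusted p = 0.648 in edgeR) did not pass. It was -0.33 (SE 0.13, adjusted p = 0.608 in edgeR) after a correction for GC content and -0.08 without malonyl-CoA 3. Set against each other within libraries, the levels of Klf1 and Gata1 just given had a log2 ratio of -3.36 ± 0.07 in control and -3.92 ± 0.37 with malonyl-CoA, a description that holds nothing beyond those levels.

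Zfpm1 (ENSMUSG00000049577, chromosome 8, 122282141 to 122337251), the gene of the GATA1 cofactor FOG1, varied more than any other tested member. It was at 11.3, 17.6, 31.6 and 15.3 CPM in the controls and 30.3, 32.3, 47.7 and 17.4 CPM with malonyl-CoA. Control 4 lay among the malonyl-CoA libraries and malonyl-CoA 5 among the controls. The log2 fold change was 0.75 (SE 0.36, adjusted p = 0.523 in edgeR). It was 1.12 without control 4 and 0.48 without malonyl-CoA 4. The GC correction gave 0.22 for Zfpm1 and -1.04 for Klf1. The longest transcript of Zfpm1 has a GC share of 66.8% and that of Klf1 61.05%.

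Of the 18 genes in a list of erythroid transcription factors that holds these 3, all were tested, 10 were higher and 8 lower, and 0 passed. The median log2 fold change was 0.04, against 0.02 over all genes tested, of which 53.3% were higher. Tal1 (also known as SCL), which works in a complex with GATA1, was at 92.8 ± 6.04 and 78.7 ± 4.16 CPM, with all malonyl-CoA libraries below all controls and a log2 fold change of -0.24 (SE 0.10, adjusted p = 0.523 in edgeR). Its partner Lmo2 differed by -0.09 on the log2 scale (SE 0.12) and Nfe2, a subunit of a globin regulator, by -0.06 (SE 0.11). Myb, which maintains progenitors and was among the most abundant factors of this list at 422 ± 81.8 CPM in control and 381 ± 126 with malonyl-CoA, differed by -0.15 (SE 0.22), and Tcf3, an E protein that pairs with TAL1, by 0.42 (SE 0.19). After the GC correction Tal1 was at -0.37, Lmo2 at -0.24, Nfe2 at -0.16 and Tcf3 at 0.09, and the list had 7 genes higher and a median of -0.08.

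The genes most like Klf1 and Gata1 over the 8 libraries were sought by the root mean square difference of centred log2 CPM. For Klf1 these were Crispld2 (0.130), Zfp14 (0.150), Aldh6a1 (0.151), Kctd12b (0.169) and Svip (0.172), where the median over all tested genes was 0.450. For Gata1 they were Zswim1 (0.0495), Ubfd1 (0.0523), Smyd3 (0.0555), Tsr2 (0.0641) and Cdca7 (0.0696), with a median of 0.291. None of these 10 genes is in the lists of erythroid biology. By this measure Gata1 was closest to Tfrc among the members (0.188), and Klf1 to Car1 (0.303). A small value can also come from genes that vary little, and does not show a shared direction. Around their means, Gata1 was at 0.19 and Tfrc at -0.13 in control 4, and at -0.26 and 0.09 in malonyl-CoA 3. The largest difference between any pair of tested members was that of Zfpm1 and Car1 (0.962).

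**Figure D3:**
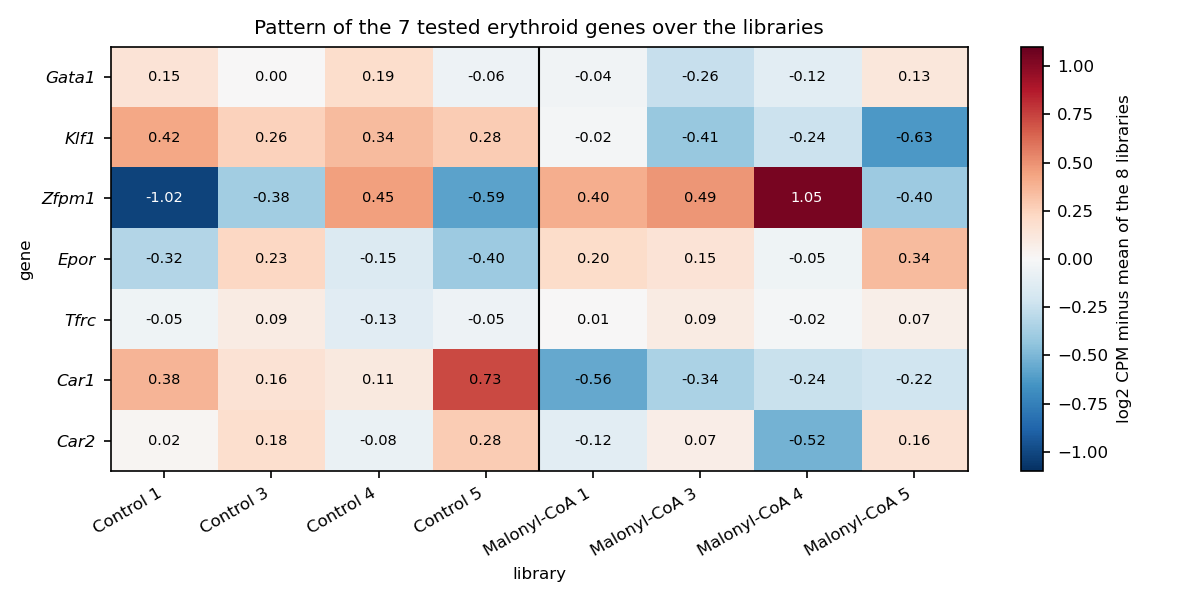
Log2 CPM of the 7 tested genes minus their mean over the 8 libraries (colour and printed value), controls left and malonyl-CoA right of the line. Klf1 and Car1 are positive in 4 controls and negative in 4 malonyl-CoA libraries, Zfpm1 has the widest range, from -1.02 to 1.05, and Tfrc the narrowest.

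The start regions of 4 members are shown, those of Klf1, Epor, Hba-a1 and Hbb-bt. These regions hold matches to the GATA or KLF1 words given below, as do those of Gata1, Zfpm1, Tfrc and Ermap, which are not printed. A link between these words and the levels of the genes was not tested. A RefSeq start region (GRCm38.p6, 250 bases before the start and 50 after it) was found for 8 of the 10 members, and none for Car1 and Car2. Letters are in capitals where they match a GATA word (AGATAA or AGATAG or TGATAA or TGATAG) or a KLF1 word (CCNCNCCC) on either strand, and overlapping matches run together. The windows are Klf1 at chr8:84901732-84902031 (plus strand), Epor at chr9:21963527-21963826 (minus strand), Hba-a1 at chr11:32283422-32283721 (plus strand) and Hbb-bt at chr7:103813874-103814173 (minus strand), each printed 5′ to 3′ on the strand of its gene.
Klf1: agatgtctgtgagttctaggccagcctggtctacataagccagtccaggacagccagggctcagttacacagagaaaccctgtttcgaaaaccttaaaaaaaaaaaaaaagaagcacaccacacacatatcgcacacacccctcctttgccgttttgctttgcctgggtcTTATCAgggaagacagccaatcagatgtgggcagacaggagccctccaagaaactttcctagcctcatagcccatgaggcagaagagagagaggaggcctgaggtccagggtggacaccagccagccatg
Epor: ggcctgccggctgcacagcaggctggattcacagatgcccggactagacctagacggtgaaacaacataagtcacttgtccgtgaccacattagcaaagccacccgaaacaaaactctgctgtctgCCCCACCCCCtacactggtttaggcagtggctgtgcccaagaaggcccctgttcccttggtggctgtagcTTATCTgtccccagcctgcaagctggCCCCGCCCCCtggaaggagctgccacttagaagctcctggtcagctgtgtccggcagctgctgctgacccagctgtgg
Hba-a1: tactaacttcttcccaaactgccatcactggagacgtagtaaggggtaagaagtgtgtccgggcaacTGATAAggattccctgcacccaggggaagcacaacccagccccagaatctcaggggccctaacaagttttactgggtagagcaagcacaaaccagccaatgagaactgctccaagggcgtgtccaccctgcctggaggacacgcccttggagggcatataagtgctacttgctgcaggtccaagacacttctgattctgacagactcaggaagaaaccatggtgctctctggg
Hbb-bt: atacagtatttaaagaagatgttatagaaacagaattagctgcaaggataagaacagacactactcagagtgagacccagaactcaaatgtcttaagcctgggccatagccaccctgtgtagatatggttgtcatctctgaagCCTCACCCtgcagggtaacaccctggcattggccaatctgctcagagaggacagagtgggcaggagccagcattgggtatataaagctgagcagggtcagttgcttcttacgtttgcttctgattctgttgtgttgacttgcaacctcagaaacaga

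The Klf1 window holds 1 GATA word, on the opposite strand, starting 80 bases before the start site, and no KLF1 word. Epor has 1 GATA word 54 bases before the start and 4 KLF1 matches in overlapping pairs, and was the one member with both. Hba-a1 has 1 GATA word 183 bases before the start, and Hbb-bt 1 KLF1 word 107 bases before it. Over the members, 4 had a GATA match and 5 a KLF1 match. Of all 32851 start regions in the table, 29.8% hold a GATA word, 49.5% a KLF1 word and 10.2% both. A match describes letters in this window and shows no binding.

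The receptors lay on the higher side by small amounts that did not pass. Epor (ENSMUSG00000006235, chromosome 9, 21958897 to 21963506) was at 2.68, 3.98, 3.03 and 2.54 CPM in the controls and 3.90, 3.76, 3.26 and 4.32 CPM with malonyl-CoA. Control 3 lay among the malonyl-CoA libraries and the other 3 controls below all of them. The log2 fold change was 0.32 (SE 0.20, adjusted p = 0.550 in edgeR) from 47 to 80 reads per library, and 0.015 after the GC correction. Against Gata1 in the same library, the log2 ratio of Epor averaged -2.54 ± 0.32 in control and -2.06 ± 0.14 with malonyl-CoA (two-sided exact permutation p = 0.0857, adjusted p = 0.107 over the 5 ratios computed, which were chosen after the levels had been seen; the smallest p that 4 against 4 libraries allow is 0.0286).

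Genes around the erythropoietin receptor were mostly higher, though 0 of the 15 tested passed. In that list 13 were higher and 2 lower; the median difference was 0.25 on the log2 scale, against 0.02 over all genes. After the GC correction 10 of the 15 were higher and the median was 0.07. The genes of the list with the smallest p were Pim1, Ptpn6 and Socs3, which respond to or act on many cytokine receptors. Pim1, a survival kinase, was at 71.5 ± 16.5 and 142 ± 10.3 CPM, with no overlap and a log2 fold change of 0.99 (SE 0.16, adjusted p = 0.225 in edgeR). Ptpn6, the phosphatase SHP1 that shuts off the receptor, was at 181 ± 28.2 and 271 ± 53.4 CPM, also without overlap (log2 fold change 0.58, SE 0.17, adjusted p = 0.404 in edgeR). Socs3, a feedback inhibitor, was at 4.62 ± 2.57 and 11.5 ± 3.75 CPM, with overlap (log2 fold change 1.32, SE 0.40, adjusted p = 0.430 in edgeR). Grb2, an adaptor, differed by -0.05 (SE 0.09; -0.16 after the GC correction) and Ptpn11, the gene of the phosphatase SHP2, by 0.14 (SE 0.14; 0.07 after it). In the same libraries the 10 macrophage markers summed to 452 to 530 CPM in control and 558 to 653 CPM with malonyl-CoA, and 6 of the 7 tested were higher. Csf1r held the largest share of this sum, at 219 ± 16.4 and 315 ± 27.8 CPM, while Adgre1 was at 116 ± 18.0 and 120 ± 20.1 CPM. The part of macrophages in the values of the erythropoietin receptor list was not tested.

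Tfrc (ENSMUSG00000022797, chromosome 16, 32608920 to 32632794), which takes up iron-loaded transferrin, was the steadiest member. It stood at 736, 809, 696 and 733 CPM in the controls and 764, 809, 749.7 and 796 CPM with malonyl-CoA, from 12899 to 16786 reads. The groups overlapped, and the log2 fold change was 0.07 (SE 0.10, adjusted p = 0.770 in edgeR), 0.19 after the GC correction and 0.039 without control 4. Of 17 genes of iron uptake, storage and export 8 were higher and 9 lower, 0 passed, and the median was -0.02. Slc40a1, the iron exporter ferroportin, was at 18.9 ± 2.71 and 13.1 ± 0.38 CPM, without overlap (log2 fold change -0.53, SE 0.14, adjusted p = 0.376 in edgeR). Ireb2, an iron-sensing RNA-binding protein that stabilises Tfrc mRNA, was at 166 ± 14.8 and 139 ± 6.81 CPM, also without overlap (log2 fold change -0.26, SE 0.10, adjusted p = 0.519 in edgeR; -0.13 after the GC correction). The ferritin genes Fth1 and Ftl1, which store iron, differed by 0.37 (SE 0.28) and 0.49 (SE 0.19) on the log2 scale, with overlapping groups, and that of Ftl1 was 0.21 after the GC correction.

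Heme synthesis was represented by its general enzymes. Alas1, the form of the first enzyme made in most cells, was at 285 ± 42.6 CPM in control and 286 ± 31.9 with malonyl-CoA, while the erythroid form Alas2 had no read, which allows at most 0.177 CPM in any single library by the limit of 3 reads. Of 13 tested genes of the pathway 4 were higher, 9 lower and 0 passed (median log2 fold change -0.05). Abcb10, a mitochondrial transporter of erythroid cells, had -0.25 (SE 0.11, adjusted p = 0.523 in edgeR) and Ppox, a late enzyme of the pathway, 0.35 (SE 0.21). After the GC correction Abcb10 was at -0.40, Ppox at 0.22 and Alas1 at -0.13. The count of higher genes was 2 after the GC correction and 7 without control 1. Of 7 tested genes of heme breakdown and export 3 were higher and 4 lower (median -0.07, 0 passed), with Hmox2, a heme oxygenase, at 0.15 (SE 0.11; 0.09 after the GC correction).

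Globin transcripts were few, and most globin genes had no read or almost none. Hba-a1 (ENSMUSG00000069919, chromosome 11, 32283511 to 32284465), an alpha-globin gene, had 1 read in control 1 and 0 in the other 7 libraries. A count of 0 allows up to 0.134 CPM in malonyl-CoA 4 and 0.177 CPM in malonyl-CoA 5, so no fold is given. Hbb-bt (ENSMUSG00000073940, chromosome 7, 103812524 to 103813996), an adult beta-globin gene, was read in every library, with 6, 13, 4 and 17 reads in controls 1, 3, 4 and 5 and 6, 3, 1 and 4 reads in malonyl-CoA 1, 3, 4 and 5. As CPM these were 0.342, 0.699, 0.186 and 0.798 in control and 0.292, 0.147, 0.0447 and 0.236 with malonyl-CoA. Controls 3 and 5 were high, control 4 lay among the malonyl-CoA libraries and control 1 just above them. Its counts exceeded the limit of 3 reads in all 4 controls and in malonyl-CoA 1 and 5. With no filter on low counts its log2 fold change was -1.49 (SE 0.59, adjusted p = 0.625 in edgeR).

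All 8 globin genes found took 4 to 18 reads per control library and 1 to 6 per malonyl-CoA library. Of these genes Hba-a2, Hba-x, Hbb-bh1 and Hbb-bh2 had none, Hbb-bs had 2 and the embryonic gene Hbb-y had 4, all in 1 control library. Near-identical copies limit these counts: 32.5% of the windows of 50 bases in the Hba-a1 transcript and 41.7% of those in Hbb-bt occur in no other gene, and reads with several positions made up 38.2% to 51.1% of tallied reads. Reads that fit several copies are not in these globin counts. Every such window of Gata1, Klf1, Epor, Tfrc, Zfpm1 and Car2 was unique to its gene. Car1 and Zfpm1 each overlap another gene on the same strand, with 0 exonic bases shared.

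The carbonic anhydrases, enzymes that turn carbon dioxide into bicarbonate, gave the member with the smallest p. Car1 (ENSMUSG00000027556, chromosome 3, 14766216 to 14808368), an early marker of erythroid commitment, was at 7.47, 6.40, 6.20 and 9.58 CPM in the controls and 3.85, 4.50, 4.82 and 4.91 CPM with malonyl-CoA. All malonyl-CoA libraries lay below all controls, and control 5 was the highest. The group means were 7.41 ± 1.55 and 4.52 ± 0.48 CPM, from 79 to 204 reads. Its log2 fold change was -0.71 (SE 0.19, adjusted p = 0.379 in edgeR), and -0.57 without control 5. Of the windows of 50 bases in its transcript 85.5% were unique.

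Car2 (ENSMUSG00000027562, chromosome 3, 14886273 to 14900770), found in red cells and in many other cells, was at 58.6, 65.6, 54.7 and 69.9 CPM in the controls and 53.2, 60.6, 40.2 and 64.4 CPM with malonyl-CoA. The groups overlapped and malonyl-CoA 4 was lowest. The log2 fold change of -0.19 (SE 0.16, adjusted p = 0.619 in edgeR) was -0.07 without malonyl-CoA 4. Both genes belong to a cluster with Car13 (14641727 to 14663002) and Car3 (14863512 to 14872523) on chromosome 3. Car13 averaged 14.9 ± 3.32 and 17.9 ± 4.10 CPM and Car3 4.85 ± 1.32 and 3.58 ± 0.68 CPM. Within libraries the log2 ratio of Car1 to Car13 was lower with malonyl-CoA by a difference of -0.95 (exact permutation p = 0.0571, adjusted p = 0.107), to Car2 by -0.50 (exact permutation p = 0.0857, adjusted p = 0.107) and to Car3 by -0.28 (exact permutation p = 0.114, adjusted p = 0.114), each with overlapping groups. So a difference between Car1 and its neighbours was not shown. These tests could show little, since the smallest exact permutation p is 0.0286 before adjustment over the 5 ratios. The ratios were also chosen after the levels had been seen. Of the 7 tested carbonic anhydrases 3 were higher and 4 lower (median -0.19, 0 passed). This median is the value of Car2, and the 5 genes other than Car1 and Car2 had a median of 0.26. Among them were Car9 (-0.34, SE 0.17), an isoform of low oxygen, and Car12 (0.58, SE 0.29).

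**Figure D4:**
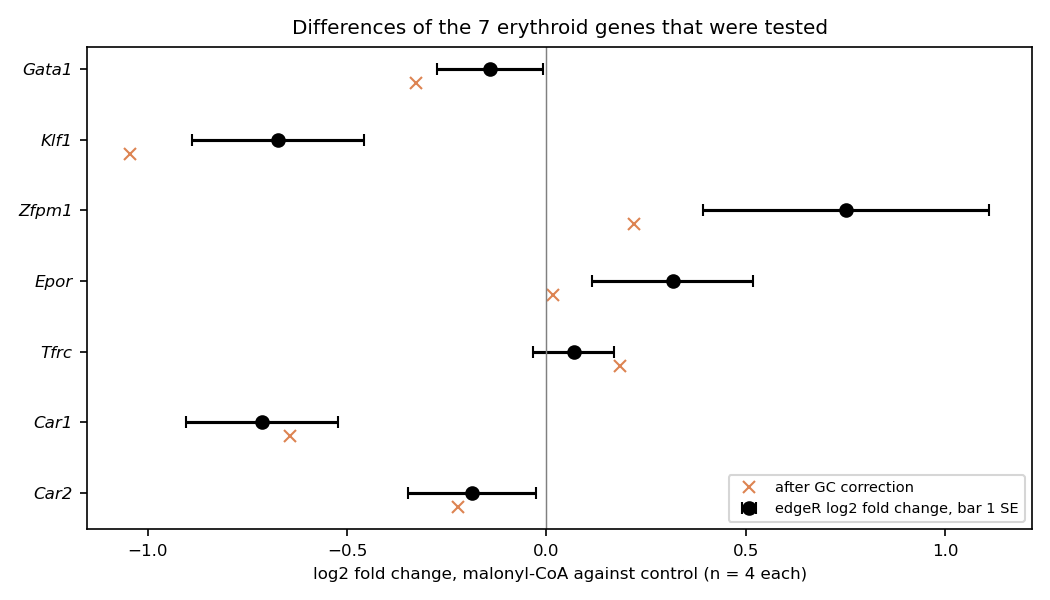
Log2 fold change of the 7 tested genes (malonyl-CoA against control, n = 4 each) with a bar of 1 SE, and the value after GC correction as a cross. Klf1 and Car1 lie below 0 by about 3 SE or more. With the correction the values of Zfpm1, Epor and Car1 move toward 0, and those of Klf1, Gata1, Tfrc and Car2 move away from it.

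The red cell surface was represented by Ermap (ENSMUSG00000028644, chromosome 4, 119175457 to 119190011), an erythroid membrane protein of the immunoglobulin superfamily that carries the Scianna blood group. It had 19, 6, 6 and 10 reads in the controls and 8, 4, 7 and 7 with malonyl-CoA, or 1.08, 0.323, 0.279 and 0.469 CPM and 0.390, 0.195, 0.313 and 0.414 CPM. Control 1 was high, and the other 7 libraries overlapped. With no filter its log2 fold change was -0.69 (SE 0.50, adjusted p = 0.625 in edgeR). Of the 22 membrane and skeleton genes 21 had at least 1 read and 12 could be tested, 6 higher and 6 lower, with a median of -0.02 and 0 passed. The abundant ones are made by many cells, such as Cd47 (528 ± 113 and 464 ± 40.0 CPM), Slc2a1 (123 ± 53.7 and 163 ± 54.5 CPM) and Add1 (134 ± 8.07 and 138 ± 13.1 CPM). Icam4, an adhesion protein of erythroblasts, was at 3.49 ± 0.69 and 2.14 ± 0.50 CPM, with all malonyl-CoA libraries below all controls (log2 fold change -0.71, SE 0.24, adjusted p = 0.484 in edgeR), from 34 to 78 reads. Aqp1, a water channel of red cells, had -0.42 (SE 0.15, adjusted p = 0.511 in edgeR) and Xk, a membrane protein linked to the Kell antigen, -0.23 (SE 0.14; -0.14 after the GC correction).

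Because several members are also made outside the red cell lineage, markers of other cells were read in the same libraries. Mast cell and basophil markers were mostly lower: 9 of 11 tested had a log2 fold change below 0 (median -0.28), and 0 passed. Without malonyl-CoA 1 it was 10 of 11. The higher genes were Cma1 (1.22, SE 0.83) and Tpsb2 (0.30, SE 0.80), from 1 to 48 and 1 to 27 reads per library. The 13 markers summed to 972 to 1183 CPM in control and 819 to 922 CPM with malonyl-CoA, without overlap. Cpa3, a mast cell protease, was at 212 ± 43.8 and 158 ± 10.7 CPM and Mcpt8, a basophil protease, at 330 ± 39.4 and 261 ± 21.9 CPM. Megakaryocyte and platelet markers overlapped, with sums of 1229 to 1523 and 988 to 1439 CPM, 6 of 14 higher and a median of -0.03, with 1 of 14 higher after the GC correction and 10 of 14 without malonyl-CoA 4. Eosinophil markers had 3 of 6 higher (median -0.12), with sums of 209 to 279 and 174 to 252 CPM. All 10 neutrophil precursor markers were lower (median -0.50, 0 passed), with sums that overlapped, although 2 of them were higher with library size as the only scaling, or when control 1, control 4 or malonyl-CoA 3 was left out, and 1 when malonyl-CoA 5 was. Stem and progenitor markers had 4 of 8 higher (median -0.01), and their sum was 1057 to 1139 CPM in control and 970 to 999 CPM with malonyl-CoA. Cd34 held the largest share of this sum, at 598 ± 41.4 and 454 ± 20.1 CPM. Flt3 was at 189 ± 20.4 and 186 ± 18.4 CPM. The mean of Ly6a was higher with malonyl-CoA (42.2 ± 21.1 and 81.3 ± 37.2 CPM), but the groups overlapped (log2 fold change 0.94, SE 0.44, adjusted p = 0.523 in edgeR). Proliferation genes had 8 of 14 higher (median 0.06). All of these defining markers were detected in at least 1 library, the tryptase gene Tpsab1 with 1 read. The part of these cells in the lower Klf1 and Car1 values was not tested.

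**Figure D5:**
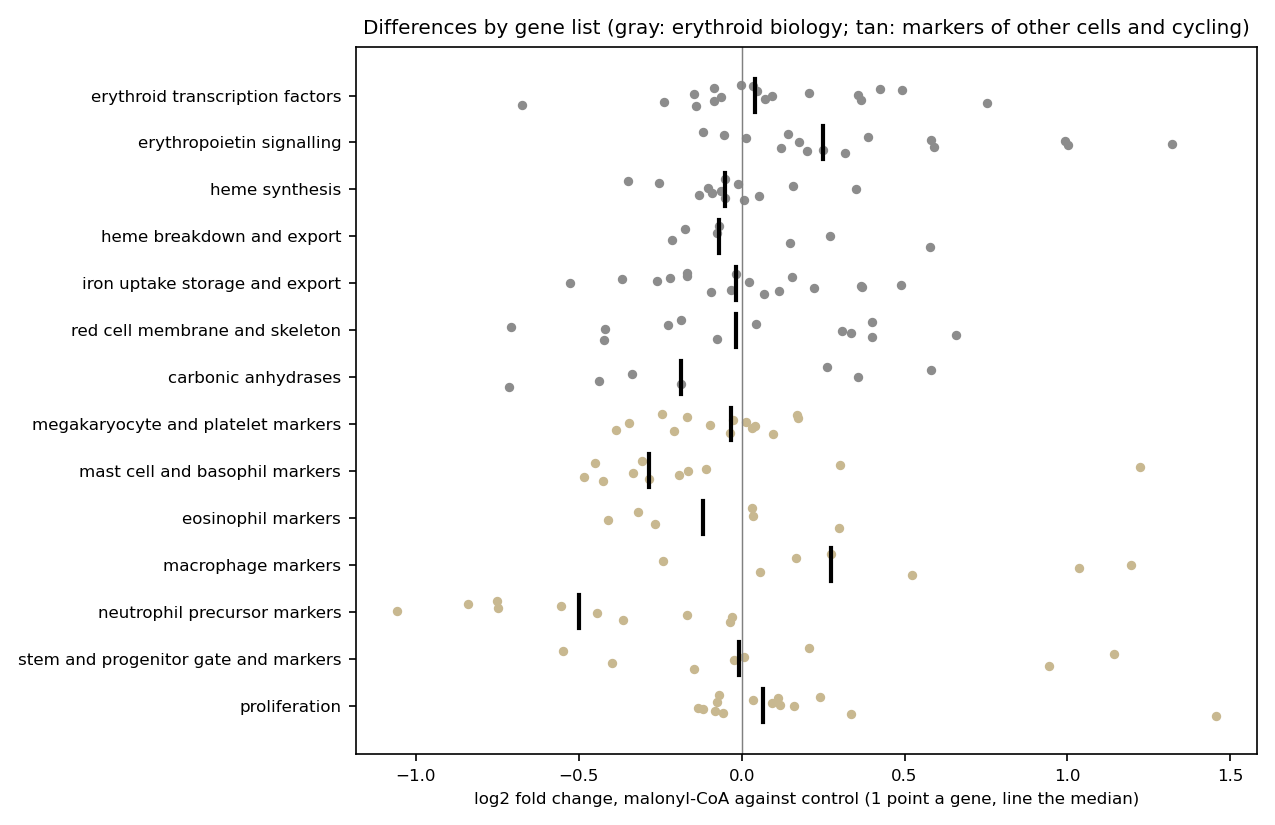
Log2 fold change of each tested gene (points) and the median (line) of 14 lists, erythroid biology in gray and markers of other cells and of cycling in tan. Lists of erythroid biology have medians between -0.19 and 0.25. The mast cell and basophil list has a median of -0.28, with Cma1 and Tpsb2 above 0. The neutrophil list has a median of -0.50, with all its genes below 0.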

How the data were processed

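The authors deposited raw read counts per Ensembl gene, 1 file per library, for 4 control and 4 malonyl-CoA libraries. Each library used 350 ng of RNA and the TruSeq Stranded Total RNA chemistry, per the labels' protocols. The tools named are HTSeq 0.6.1, STAR 2.5.2b and cutadapt 1.8, with build GRCm38, per the submitters' processing notes. Which annotation release and strand setting served is not given in the sources used here. Counter classes that name no gene (1.11% to 2.94% of tallied reads to no gene, 0.715% to 0.891% ambiguous and 38.2% to 51.1% not unique) were left out of library sizes. Groups came from the sample titles. Of 48709 identifiers, 48349 matched GENCODE M21.

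Counts were analysed in R 4.3.3 with edgeR 4.0.16: filterByExpr (minimum count 10, total 15), TMM, estimateDisp, glmQLFit (robust, with its default legacy method) and two-sided glmQLFTest without covariates, Benjamini-Hochberg adjustment over 12696 genes and a threshold of 0.05. Standard errors are the absolute log2 fold change over the root of F. The fit was tested on simulated data. Log2 CPM used a prior count of 2, and levels per length used merged exons. The floor of a count of 0 is 3 reads. Alternatives were RLE factors, library size only, no filter, a minimum of 1 CPM in 4 libraries, a block on the replicate number, a loess GC correction, DESeq2 1.42.0, limma-voom 3.58.1, summed globin copies and left-out libraries. Named were all members, the 3 most abundant and the 3 genes of smallest p of each list, late red cell markers and the 5 genes most like Gata1 and Klf1. The members and lists were chosen with earlier results of these data known. Some of the late red cell markers are not reported here. Car3, Cma1, Tpsb2 and the other globin genes were named after their values were seen.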

Additional observations from a re-analysis of the deposited data

How the results depend on the processing

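No member was called under any of the 20 alternatives, and the log2 fold changes of the 7 tested members kept their sign in all 140 refits. The number of genes called over the whole table was 0 in the main comparison, 1 with no filter on low counts, 126 with the replicate block, 6 with the replicate block and GC correction, 81 with DESeq2, and 0 to 1 when single libraries were left out (1 without control 3). Same-numbered libraries did not all deviate together (correlations of 0.43, 0.43, 0.75 and 0.05 for numbers 1, 3, 4 and 5, over 12696 genes), and control 5 was most like malonyl-CoA 3 and malonyl-CoA 5 most like control 1, so a number was not taken to pair libraries, although those numbered 1, 3 and 4 were each most like their own number. Between same-numbered libraries Car1, Klf1 and Car2 were lower with malonyl-CoA in 4 of 4 and Zfpm1 higher in 4 of 4. With the replicate block Car1 was at -0.70 (adjusted p = 0.0720 in edgeR), Klf1 at -0.69 (0.104), Zfpm1 at 0.77 (0.0791) and Car2 at -0.20 (0.242). Over the alternatives the log2 fold change of Car1 ran from -0.83 to -0.57, of Klf1 from -1.04 to -0.58, of Zfpm1 from 0.22 to 1.12, of Epor from 0.012 to 0.47, of Tfrc from 0.039 to 0.19, of Gata1 from -0.33 to -0.081 and of Car2 from -0.28 to -0.0048. Counts of higher genes in the lists stayed within 1.5 times in 282 of 300 cases. The counts of list genes that passed come from the main comparison alone, without the replicate block. Depth limits Klf1, Epor, Ermap and the globin genes most, since fewer than 100 reads lie behind each of their values. The cause of these differences was not tested.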
